A study of Drosophila melanogaster with 3 samples.

Results

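The genes described here encode molecular chaperones and their helpers: heat shock proteins, the subunits of the CCT chaperonin, co-chaperones and the folding machinery of the endoplasmic reticulum. They were chosen by gene symbol and not by a measured value, although earlier results of these data were known when the list was made. The rule takes symbols that start with Hsp and a digit, Hsc70, CCT and a digit, DnaJ, Pdi or Calr, and 16 single symbols such as *Hsf*, *stv*, *Gp93* and *PEK*. It found 38 measured genes, on 47 probes, among 8247 genes measured in all. There are 52 genes that match it in the current gene annotation. The other 14 were not analysed here: *Hsp22*, *Hsp23*, *Hsp67Ba*, *Hsp67Bc*, *Hsp83*, *Calr*, *Pdi*, *Ire1*, *Xbp1* and *Hsp70Aa*, *Hsp70Ba*, *Hsp70Bb*, *Hsp70Bbb* and *Hsp70Bc*. *Hop*, named in the rule, is now *Stip1* and had no probe with 1 symbol.

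Wild-type *Drosophila melanogaster* embryos were wounded with a laser, and their RNA was compared with that of unwounded embryos on 3 arrays, A, B and C, of cDNA clones. Each array carried both samples, unwounded embryos in Cy3 and wounded embryos in Cy5, and no array had the dyes exchanged. A difference between the dyes at a probe therefore cannot be told apart from a difference after wounding, also where all arrays have the same sign. The labels give neither the age of the embryos, nor the time after wounding, nor whether the arrays came from separate collections, so p-values measure only the spread between these arrays. RNA came from whole embryos, so a change in few cells near the wound and a small change in all cells cannot be told apart, and a ratio carries no level against which cell markers could be read.

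The deposited value is read as minus 1 times the ratio of the colours, and all values below, given for each array by its letter, are the log2 of that ratio, averaged over the probes of a gene. The direction of the ratio is not stated in the labels. A positive value is here read as likely more RNA after wounding, since Cy5 over Cy3 is the usual ratio, and every high and low exchanges if it runs the other way. The median of all genes was −0.00 (A), 0.01 (B) and −0.01 (C). Control spots carrying plant genes had a median of −0.23, and fly genomic control spots one of −0.19. Low values thus also occurred at control spots, and what set these below 0 was not tested. No spot intensities were used here, so a dim member could not be recognised.

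Chaperones bind unfolded or partly folded proteins and keep them from clumping. Small heat shock proteins hold such clients, Hsp70 proteins work on them in cycles of ATP use driven by J-domain partners and ended by nucleotide exchange factors, and the ring-shaped chaperonins enclose them. Some of these genes are silent or low until heat shock factor switches them on in stress, while others, called cognates, are active in most cells at all times. In the endoplasmic reticulum a separate set, controlled by the unfolded protein response, folds secreted and membrane proteins.

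None of the 38 genes passed the test for a difference between wounded and unwounded embryos, which does not show that they were equal. In limma, with Benjamini-Hochberg adjustment over all 8247 genes, 0 of 38 members passed an adjusted p of 0.05, where 1.96% of all genes did (41 high and 121 low). At an unadjusted p under 0.05 there were 7 of 38 members, or 18.4%, and 18.4% of all genes lay there too. Among single probes 0 of 47 member probes passed, against a background of 1.55%, and 10 had an unadjusted p under 0.05, against 18.4% of all 11887 probes. The median over members was −0.08, with −0.07 (A), 0.01 (B) and −0.15 (C). It was −0.03 without array C, and −0.02 as the median of the family medians. Of the gene means 12 of 38 were above 0, against 4117 of 8247 for all genes. The members' count of calls was therefore not above the background, and the values below are descriptions of single arrays and of gene means that did not pass.

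**Figure D1:**
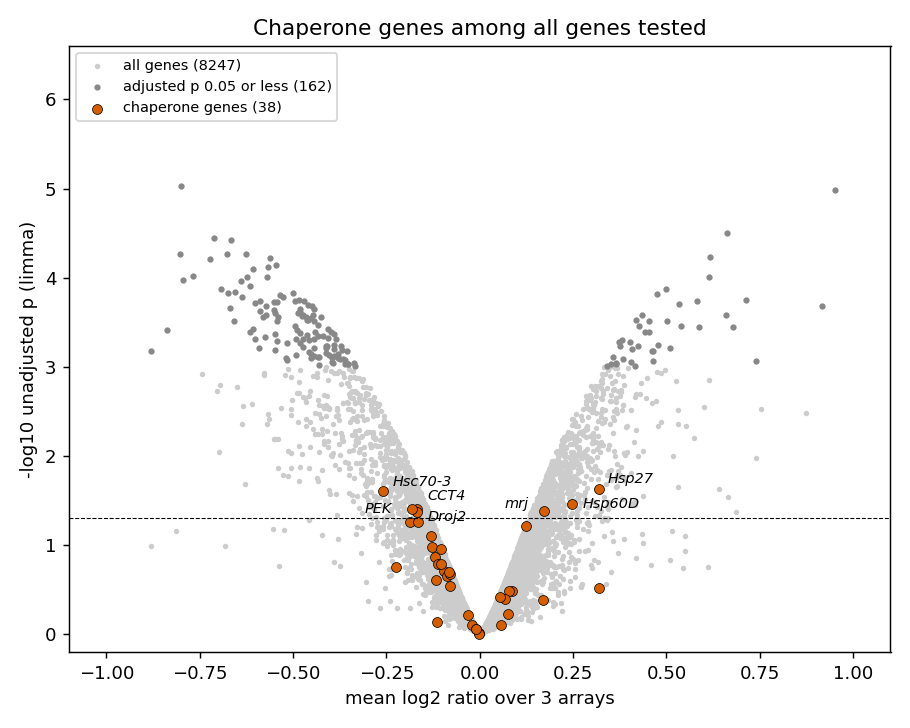
Mean log2 ratio over 3 arrays (x axis) against −log10 of the unadjusted limma p (y axis) for all 8247 genes (light grey), the 162 past an adjusted p of 0.05 (dark grey) and the 38 chaperone genes (orange). The dashed line marks an unadjusted p of 0.05, above which 7 chaperone genes lie, none of them among the dark grey points; 2 genes lie outside the plotted range.

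Of the 3 small heat shock proteins measured, *Hsp26* and *Hsp27* had the highest gene means of all members, and the values of each differed between arrays. *Hsp26* (probe LD11379), a small heat shock protein that is strongly induced by heat, had 1.23 (A), 0.04 (B) and −0.31 (C). Array A alone was high, at a ratio of 2.35, and only 4 of 8247 genes lay above *Hsp26* there, while on array C only 352 lay below it. Its mean was 0.32 ± 0.81 (SD, n = 3; limma adjusted p = 0.602), so the spread between arrays was larger than the mean.

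*Hsp27* (probe GM13686), a nuclear small heat shock protein, had 0.59 (A), 0.29 (B) and 0.08 (C). All arrays lay on the same side of 0, with array A again the highest. The mean of 0.32 ± 0.26 (SD, n = 3; limma adjusted p = 0.187) had the smallest p of all members and did not pass. *l(2)efl* (probe GH01960), a small heat shock protein related to the alpha-crystallins, had 0.39 (A), −0.54 (B) and 0.32 (C). Here array B stood apart and the mean was 0.06 ± 0.52 (SD, n = 3; limma adjusted p = 0.907). *Hsp26* and *Hsp27* lie in a cluster of small heat shock genes on chromosome arm 3L, where *Hsp67Ba* and *Hsp23* lie between them in the current annotation. Both were high on array A, while on array C *Hsp26* lay below 0 and *Hsp27* above it.

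The stress-inducible members of the Hsp70 family also differed widely between arrays. *Hsp70Ab* (probe AT29796), a copy of the main heat-inducible Hsp70 gene, had 0.90 (A), −0.65 (B) and −0.59 (C). Array A was high and both others were low, and on array B 79 genes and on array C 33 genes lay lower. The mean was −0.11 ± 0.88 (SD, n = 3; limma adjusted p = 0.878). Its near-identical copies can bind the same probe, so the value cannot be assigned to *Hsp70Ab* alone.

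*Hsp68* (probe RE48592), a heat-inducible relative of Hsp70, had 0.79 (A), −0.13 (B) and −0.16 (C). Array A was high at a ratio of 1.73, with 27 genes above it, and both others lay slightly below 0. The mean was 0.17 ± 0.54 (SD, n = 3; limma adjusted p = 0.691). Whether probe RE48592 also binds RNA of the Hsp70 copies was not tested. *DnaJ-1* (probe SD08787), the heat-inducible J-domain partner of Hsp70, had 0.21 (A), −0.31 (B) and −0.57 (C). The order of the arrays was that of *Hsp26*, and the mean of −0.22 ± 0.39 (SD, n = 3; limma adjusted p = 0.472) was the second lowest of the members.

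These 6 genes, *Hsp26*, *Hsp27*, *l(2)efl*, *Hsp70Ab*, *Hsp68* and *DnaJ-1*, known from other work to respond to heat, were grouped after their values were seen, so the group gets no test. All 6 had their highest value on array A, as did 4 of the other 32 members and 28.4% of all genes. Array A exceeded the mean of arrays B and C by 1.52 for *Hsp70Ab*, 1.37 for *Hsp26* and 0.93 for *Hsp68*. The excess was 0.64 for *DnaJ-1*, 0.50 for *l(2)efl* and 0.41 for *Hsp27*. Of all 8247 genes, 3 had a larger excess than *Hsp70Ab*, 15 than *Hsp68*, 39 than *DnaJ-1* and 160 than *Hsp27*. The group's median was 0.69 (A), −0.22 (B) and −0.23 (C). Without array A, *Hsp26* (−0.14), *Hsp68* (−0.14) and *l(2)efl* (−0.11) turned to the other side of 0, *Hsp70Ab* went to −0.62 and *DnaJ-1* to −0.44, and *Hsp27* stayed above 0 at 0.18. Array A is 1 array, so its difference from the others has no replicate, and what set it apart was not tested. The starvin gene *stv*, a co-chaperone of Hsp70 that is also known to respond to heat, had −0.14 (A), −0.13 (B) and −0.05 (C) and did not share the pattern. Outside the rule, the stress-responsive polyubiquitin gene *Ubi-p63E* did not share it either, at −0.16 (A), −0.14 (B) and −0.22 (C). The stress-responsive gene *ref(2)P* was highest on array A, at 0.13 (A), 0.06 (B) and −0.04 (C).

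**Figure D2:**
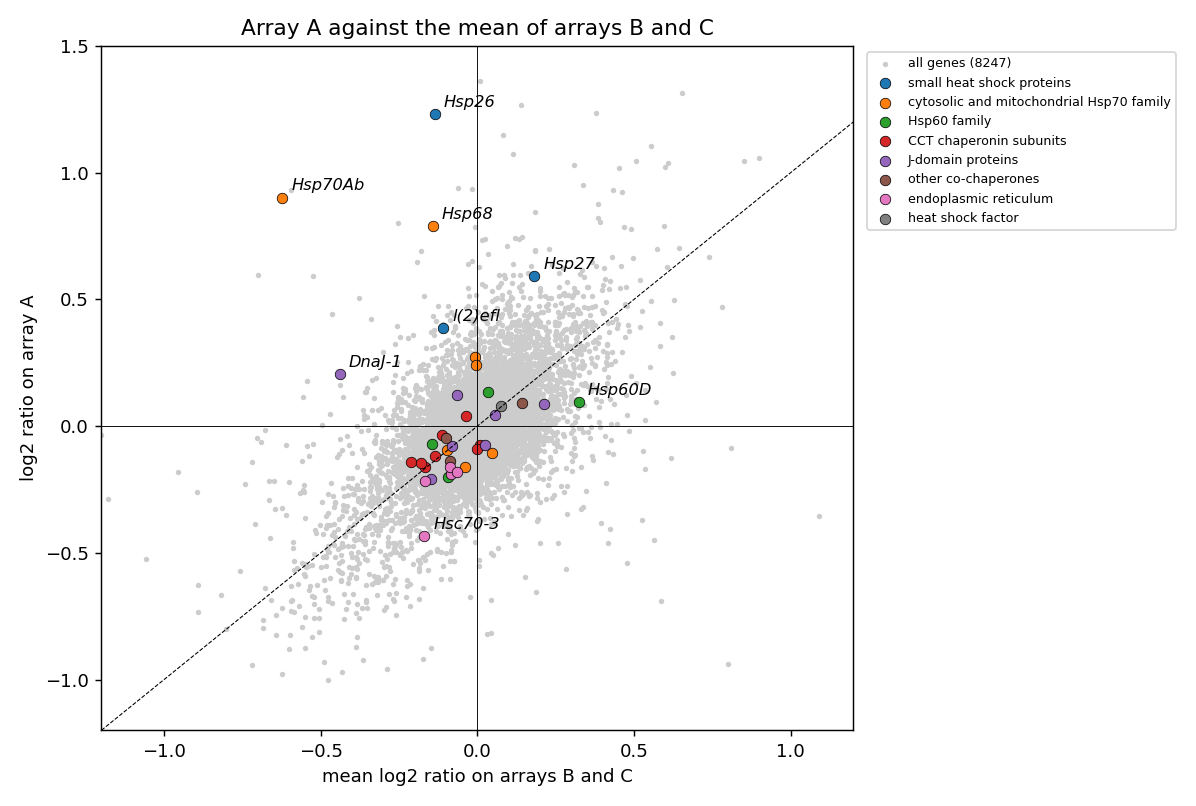
Log2 ratio on array A (y axis) against the mean log2 ratio on arrays B and C (x axis) for all 8247 genes (grey) and the 38 chaperone genes, coloured by family; the dashed line marks equal values. *Hsp26* (1.23), *Hsp70Ab* (0.90) and *Hsp68* (0.79) stand high on array A with values below 0 on the x axis, and 3 genes lie outside the plotted range.

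The cognate members of the Hsp70 family had gene means between −0.10 and 0.09, with single arrays from −0.21 to 0.27. *Hsc70-4* (3 probes), the main cytosolic Hsp70 of unstressed cells and the partner of auxilin in removing clathrin coats, had −0.11 (A), 0.10 (B) and −0.00 (C). Its probe RH04426 ran from −0.31 to 0.36 over the arrays, although the re-amplified spot of the same clone ran from −0.10 to 0.08. *Hsc70-1* had 0.27 (A), 0.06 (B) and −0.07 (C), and *Hsc70-2* had 0.24, −0.02 and 0.01. Both were highest on array A, with means of 0.09 and 0.08. *Hsc70-5*, the Hsp70 of mitochondria, had −0.09, 0.02 and −0.21, and *Hsp110*, a nucleotide exchange factor for Hsp70, had −0.16, 0.06 and −0.14. These 5 genes had limma adjusted p from 0.499 to 0.985.

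The heat shock factor gene *Hsf* (probe SD02833), which encodes the transcription factor that switches heat shock genes on, had 0.08 (A), 0.44 (B) and −0.29 (C). Its arrays did not follow those of the heat-inducible genes: it was highest on array B, where 8055 of 8247 genes lay below it, and the mean was 0.08 ± 0.36 (SD, n = 3; limma adjusted p = 0.807).

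**Figure D3:**
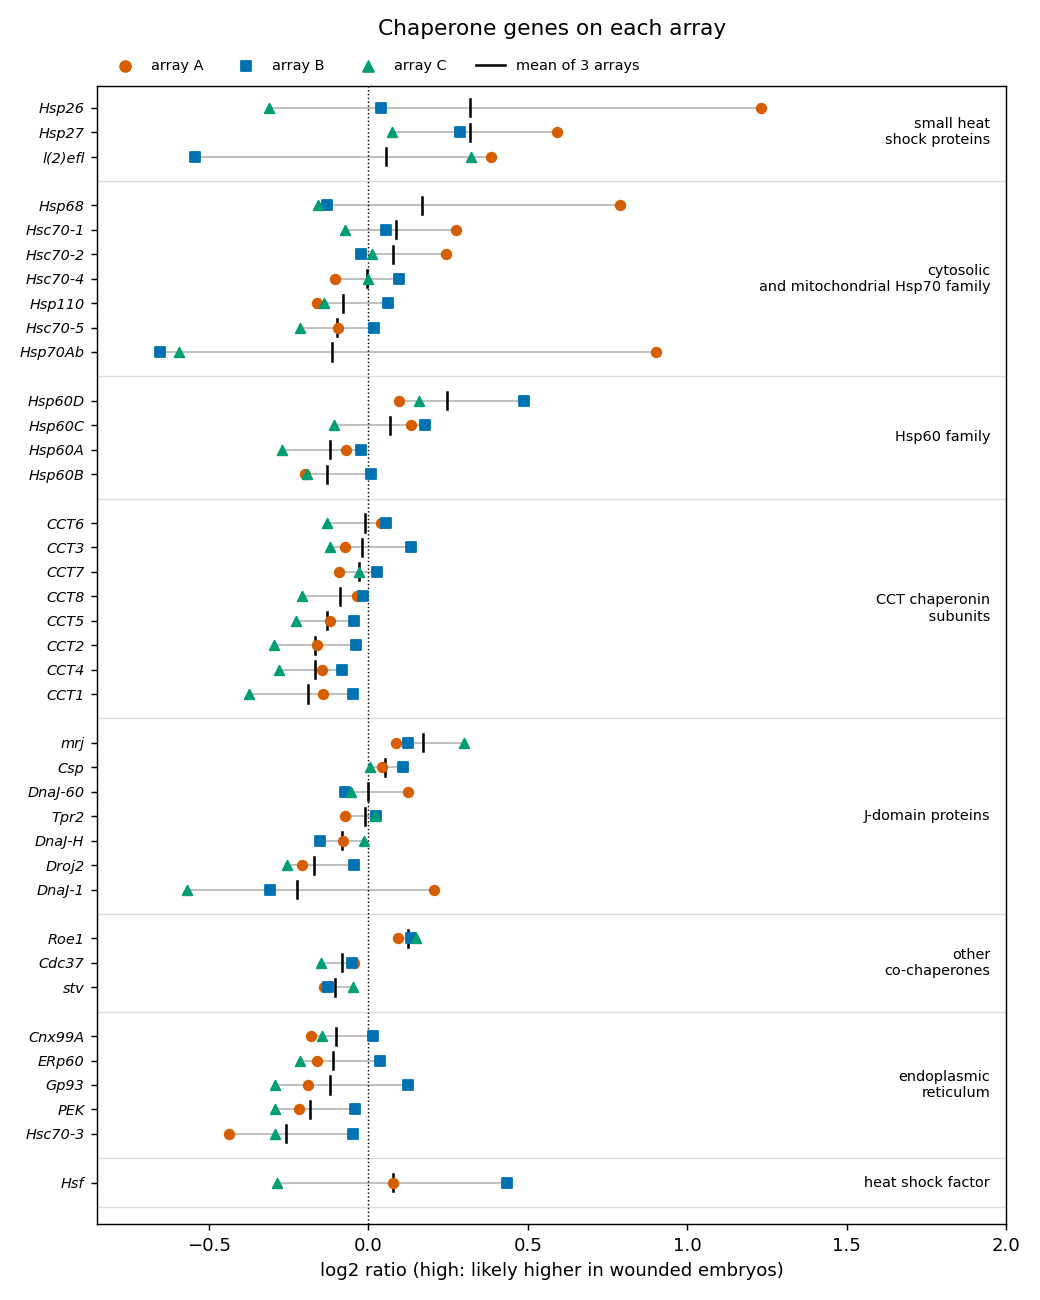
Log2 ratio of each of the 38 chaperone genes on arrays A (orange circles), B (blue squares) and C (green triangles), by family, with the mean as a black bar and the range as a grey line; the dotted line is a ratio of 1. The ranges of *Hsp26*, *Hsp68*, *Hsp70Ab* and *l(2)efl* are the widest, at 0.93 to 1.55, while the 8 CCT subunits stay between −0.37 and 0.13.

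The CCT chaperonin is a ring complex of the cytosol that folds actin and tubulin, and probes for all 8 of its subunits were measured. Within each array the subunits lay close to each other, while their median SD over arrays was 0.10, beside 0.10 for all genes. On array A the subunits ran from −0.16 (*CCT2*) to 0.04 (*CCT6*), on array B from −0.08 (*CCT4*) to 0.13 (*CCT3*) and on array C from −0.37 (*CCT1*) to −0.03 (*CCT7*). The medians were −0.10, −0.03 and −0.22, so array C was the lowest. All 8 had their highest value on array B, where 40.5% of all genes had theirs, and 7 were below 0 on both arrays A and C, against 34.5% of all genes. The SD over the 8 subunits was 0.07 (A), 0.07 (B) and 0.11 (C), beside 0.21, 0.25 and 0.19 over all genes. Their interquartile range was 0.08, 0.08 and 0.16, beside 0.21, 0.23 and 0.19. Such closeness was not particular to CCT. The SD over 26 proteasome subunits was 0.10 on each array, and over 6 prefoldin subunits it was 0.04, 0.03 and 0.10.

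The gene means of the 8 subunits over 3 arrays were below 0, although that of *CCT6* lay above 0 without array C (0.05) or with centred libraries (0.03), and that of *CCT3* without array A (0.01) or array C (0.03). *CCT1* had −0.14 (A), −0.05 (B) and −0.37 (C), with a mean of −0.19 ± 0.17 (SD, n = 3; limma adjusted p = 0.280). *CCT4*, on probes RE04548 and RE61939 with means of −0.17 and −0.16, had −0.14, −0.08 and −0.28. Its mean of −0.17 ± 0.10 (SD, n = 3; limma adjusted p = 0.245) corresponds to a ratio of 0.890. *CCT2* (−0.17), *CCT5* (−0.13) and *CCT8* (−0.09) were also below 0 on every array, as *CCT1* and *CCT4* were. *CCT3* (−0.02), *CCT6* (−0.01) and *CCT7* (−0.03) lay nearest to 0 and had both signs over the arrays. No subunit passed, and the smallest adjusted p among them was that of *CCT4*.

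The Hsp60 family, the ring chaperonins of mitochondria and their relatives, held values on both sides. *Hsp60A*, the main mitochondrial chaperonin, had −0.07 (A), −0.02 (B) and −0.27 (C), with a mean of −0.12 ± 0.13 (SD, n = 3). *Hsp60B*, needed in sperm formation, had −0.20, 0.01 and −0.19, and *Hsp60C* had 0.13, 0.18 and −0.11. *Hsp60D* (probe AT04835) was the only one above 0 on every array, with 0.09 (A), 0.49 (B) and 0.16 (C). Its mean of 0.25 ± 0.21 (SD, n = 3; limma adjusted p = 0.232) was the third highest of the members and did not pass.

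The members of the endoplasmic reticulum lay below 0 on arrays A and C and near 0 on array B. *Hsc70-3*, or BiP, the Hsp70 of that compartment and a classic target of the unfolded protein response, had −0.44 (A), −0.05 (B) and −0.29 (C) over 2 tested probes. All arrays were below 0, and its mean of −0.26 ± 0.20 (SD, n = 3; limma adjusted p = 0.193) was the lowest of all members, at a ratio of 0.836. Its clones RE17418 (−0.25) and RH21402, by its re-amplified spot (−0.26), differed by less than the spread between arrays. The original spot of RH21402 had −0.57 and −0.37 on arrays A and B, lacked a value on array C and was left out of the fit.

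*PEK*, the kinase that slows translation when unfolded proteins build up there, had −0.22 (A), −0.04 (B) and −0.29 (C), with a mean of −0.18 ± 0.13 (SD, n = 3; limma adjusted p = 0.247). *Gp93*, the Hsp90 of the compartment, had −0.19, 0.13 and −0.29. *ERp60*, of the protein disulfide isomerase family, had −0.16, 0.04 and −0.21, and *Cnx99A*, the membrane lectin calnexin, had −0.18, 0.02 and −0.14. All 5 were below 0 on arrays A and C, as were 34.5% of all genes. All 5 were highest on array B, as were 40.5% of all genes. The medians of the 5 were −0.19 (A), 0.02 (B) and −0.29 (C), and none passed. For *Cnx99A* the lower value came from 1 clone, AT22968 (−0.18), while GH08684 lay at −0.02.

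**Figure D4:**
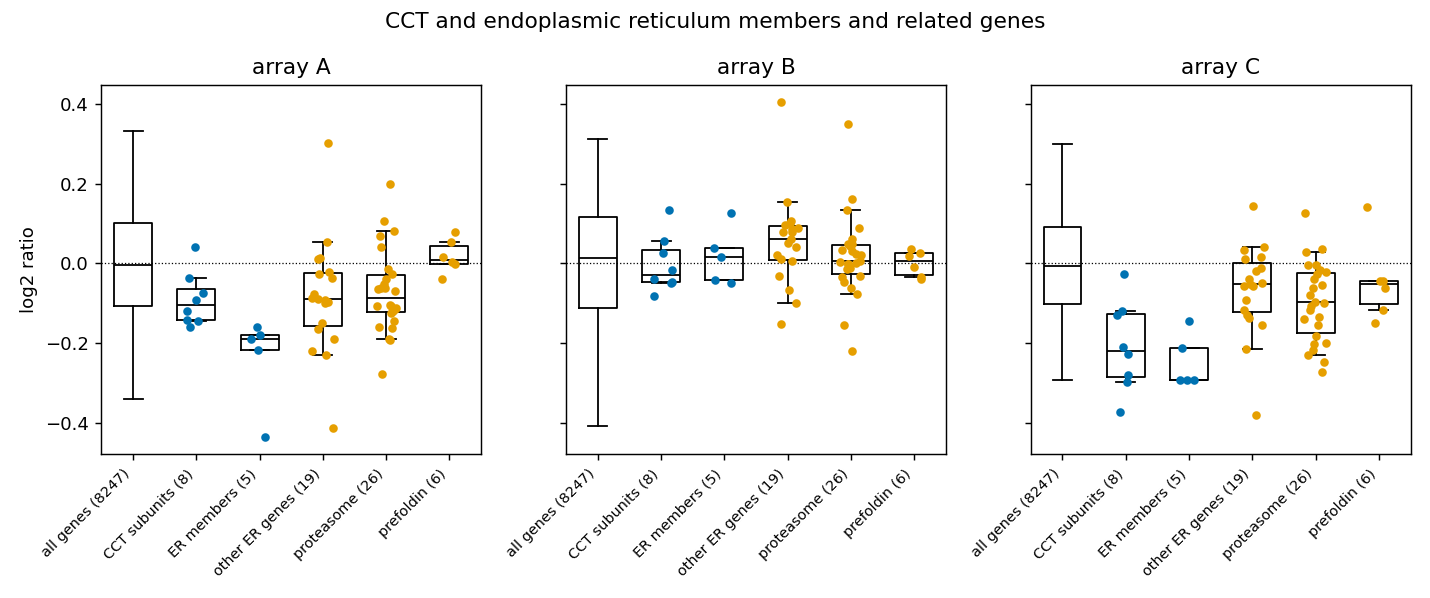
Log2 ratios on arrays A, B and C (panels) for all genes, the 8 CCT subunits, the 5 endoplasmic reticulum members, 19 other genes of that compartment, 26 proteasome subunits and 6 prefoldin subunits. Boxes show quartiles and median, whiskers the 5th and 95th percentiles, and points single genes (blue for members, orange for other genes); the member groups lie below 0 on arrays A and C and around 0 on array B, and the proteasome does likewise.

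Among J-domain proteins other than *DnaJ-1*, which deliver clients to Hsp70, *mrj* and *Droj2* lay on opposite sides. *mrj* (probe LD10702) had 0.09 (A), 0.13 (B) and 0.30 (C), with a mean of 0.17 ± 0.11 (SD, n = 3; limma adjusted p = 0.253). *Droj2* (probe GM13664) had −0.21, −0.04 and −0.25, with a mean of −0.17 ± 0.11 (SD, n = 3; limma adjusted p = 0.255). Each had 1 sign on all arrays, and neither passed. *Csp*, the cysteine string protein of synaptic vesicles, was above 0 on every array with a mean of 0.05. *DnaJ-H*, averaged over 2 spots of 1 clone, was below 0 on every array with a mean of −0.08. On array C its original spot lay at 0.05 and the re-amplified one at −0.07. *DnaJ-60* (−0.00) and *Tpr2* (−0.01) had both signs.

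Of the other co-chaperones, *Roe1*, a GrpE-like nucleotide exchange factor of mitochondria, had the narrowest range over arrays of all members. It had 0.09 (A), 0.13 (B) and 0.15 (C), and 7700 of 8247 genes had a wider range. Its mean was 0.12 ± 0.03 (SD, n = 3; limma adjusted p = 0.295), and its 3 tested probes, of 2 clones, lay at 0.09, 0.11 and 0.18. Probe GM03203, at 0.18 ± 0.03 (SD, n = 3; limma adjusted p = 0.180), had the smallest p of all member probes. *Cdc37*, which brings kinases to Hsp90, had −0.05, −0.05 and −0.15, and *stv* had a mean of −0.10. The 5 members above 0 on every array were *Roe1*, *mrj*, *Csp*, *Hsp27* and *Hsp60D*, and 12 were below 0 on every array. Those below 0 on every array were 31.6% of the members, beside 20.8% of all genes. Above 0 on every array were 5 of 38 members, beside 1705 of 8247 genes. Both directions together are 44.7% of the members, beside 41.5% of all genes.

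Array A ordered the members less like arrays B and C than it ordered all genes, which was not so for arrays B and C with each other. Across the 38 members, which are not independent and share the probes' arrays and dyes, Pearson's r was −0.23 for arrays A and B, −0.01 for A and C and 0.30 for B and C, and Spearman's rho was 0.07, 0.32 and 0.35. Over all genes r was 0.36, 0.50 and 0.21. Leaving out the 5 members of widest range, *Hsp70Ab*, *Hsp26*, *Hsp68*, *l(2)efl* and *DnaJ-1*, gave r of 0.49, 0.58 and 0.35 over 33 members. These 5 were picked by their difference between arrays, so a higher r without them follows largely from that choice. The values over all genes were not trimmed in this way, so they are no measure for the 33 members. Of the members 6 had a value beyond 0.5 in size on at least 1 array, or 15.8%, and of all genes 7.66% did. These 6 were the heat-inducible genes grouped above. That group was formed after the values were seen and left out *stv*, so the match is no support for it.

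Genes of the same pathways outside the rule gave no call either. Of all genes 1.96% passed in limma and 18.4% had an unadjusted p under 0.05. At that share of calls, 0 in lists as short as those here and in the next paragraph says little about them. Of 12 other cofactors of Hsp90 and Hsp70, 0 passed in limma, 3 had an unadjusted p under 0.05, all low (*shu*, *Fkbp39* and *Sil1*), and the median was −0.04. The lowest was *shu*, which encodes an FKBP-like protein of the germ line, at −0.59 (A), −0.40 (B) and −0.26 (C) (mean −0.42; limma adjusted p = 0.0655). *Fkbp39* had a mean of −0.23 (limma adjusted p = 0.174) and *Sil1* one of −0.19. Of 19 other J-domain proteins 0 passed and 4 had an unadjusted p under 0.05, 1 high and 3 low, with a median of −0.04. Those of smallest p were *CG7387* (−0.30; limma adjusted p = 0.0832) and *shv* (−0.25; limma adjusted p = 0.149), and the others were *CG8476* (0.37) and *P58IPK* (−0.20).

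Of 19 other genes of folding and quality control in the endoplasmic reticulum, 0 passed in limma and 1 had an unadjusted p under 0.05, *Sec61beta* of the protein channel at −0.21. *Ero1L*, an oxidase that drives disulfide formation, was at 0.22. The median of the 19 was −0.09 (A), 0.06 (B) and −0.05 (C). Below 0 on both arrays A and C were 12 of them, or 63.2%, against all 5 members and 34.5% of all genes. Of 26 proteasome subunits 0 passed and 3 had an unadjusted p under 0.05, *Prosbeta3* at 0.16, *Prosalpha1* at −0.14 and *Rpn3* at −0.15. Of these subunits 21, or 80.8%, lay below 0 on both arrays A and C, and 20 were highest on array B, as the CCT subunits were. Low values on both arrays A and C were thus not particular to the CCT subunits and the members of the endoplasmic reticulum. Such values were found in 63.2% of the 19 other J-domain proteins and 58.3% of the 12 other cofactors. The share was 33.3% of the 6 prefoldin subunits and 34.5% of all genes. Highest on array B were 24 of 38 members, or 63.2%, beside 40.5% of all genes. Of 6 prefoldin subunits, which hand actin and tubulin to CCT, 0 passed and 0 had an unadjusted p under 0.05. Their median was −0.01, with *Pfdn4* (0.06) and *Pfdn6* (−0.06) of smallest p. Of 2 further stress-responsive genes 0 passed and 1 had an unadjusted p under 0.05, the polyubiquitin gene *Ubi-p63E* at −0.17, while *ref(2)P*, the autophagy receptor, was at 0.05.

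The cDNA libraries of the clones differed in their medians. Over all tested probes the median was −0.03 for the GH library and 0.08 for the RH library. The 6 GH probes of members had a median of −0.06 and the 5 RH probes one of −0.00, and the 7 RE probes had −0.16 beside 0.00 for all RE probes. The part of the library in these values was not tested: after centring each library 0 members passed in limma, but so did 0 of all genes. Where a member had more than 1 tested probe, the probe means differed by 0.01 (*CCT4*, *Hsc70-3* and *DnaJ-H*) to 0.16 (*Cnx99A*).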

How the data were processed

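Each of 3 arrays compared wounded with unwounded embryos. Per the labels, total RNA was taken with Trizol and RNeasy columns and labelled by amino-allyl reverse transcription. The deposited values, other than 168 missing ones, were all negative with medians of −1.001, −1.01 and −0.997 and a highest value of −0.01. A reading as a linear ratio times minus 1, with a floor of 0.01, was inferred from these values. For scanner, background correction and normalization, no source used here gives a statement.

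The log2 of the ratio was fitted in limma 3.58.1 (R 4.3.3) with an intercept only, across 8247 gene means and across 11887 probes with values on 3 arrays, after 160 control spots were left out. Benjamini-Hochberg adjusted p of 0.05 was the threshold; 3 arrays alone allow no exact sign-flip p below 0.25. Symbols came from the platform annotation, updated by Entrez identifier for 9746 probes, and 171 could not be updated. No gene was named from a probe that has several symbols. The test was checked on simulated data. Array positions are not printed because no source used here names a build for them, and a planned search of promoters for heat shock elements was not run because no promoter sequence was used here.

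Members and lists were chosen with earlier results of these data known. Every member of the small Hsp, Hsp70, Hsp90, chaperonin and unfolded protein response families is named, with the 5 highest, 5 lowest and 5 widest members, those that pass, and from each other list those that pass or else the 2 of smallest p. Others are named where a count of 5 or fewer is given, after their values were seen. Alternatives covered normalization, missing and floor values, moderation, array weights, the linear ratio, libraries, probe averaging and each array left out.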

Additional observations from a re-analysis of the deposited data

How the results depend on the processing

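In limma, 0 member genes and 0 member probes passed under each of 15 alternative settings run for either, including centring, quantile normalization, scaling, robust moderation, array weights, the linear ratio, library centring, a threshold of 0.10 and each array left out. Of all genes 41 were called high and 121 low, against 145 and 250 with array weights and 160 and 272 at the threshold of 0.10. With the linear ratio, with centred libraries and with any array left out, 0 genes of all were called in limma (877 to 1663 at an unadjusted p under 0.05), so 0 members there says nothing about the members. Leaving out re-amplified spots was chosen after seeing the data. Over these settings, 2 to 12 member genes and 1 to 13 member probes had an unadjusted p under 0.05. The smallest adjusted p of a member gene was 0.0800 (*Hsc70-3*, array weights), and 0.0926 with an array left out (*l(2)efl*, without array B). The members' median, −0.08, ran from −0.10 to −0.03 with an array left out and was −0.02 as the median of family medians. With an array left out 12 members changed sign. Under another setting *DnaJ-60*, *Hsp70Ab*, *Hsc70-4* and *CCT6* did. The number of arrays limits the precision, and signal over background is unknown. Each ratio already pairs the wounded and the unwounded sample of 1 array. No paired analysis was possible because, beyond that, there is 1 group of arrays with no second group to match.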

Other observations

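Probes that the annotation gives several symbols, of which at least 1 belongs to the chaperone genes, name no gene and entered no count of members above. There were 14, and 0 passed in limma over all probes (smallest adjusted p 0.264), with 1 at an unadjusted p under 0.05. Their values ran from −0.53 to 1.24 (A), from −0.47 to 0.65 (B) and from −0.79 to 0.20 (C), with medians of −0.01, 0.04 and −0.09. The highest of these values lay on array A and the lowest on array C.

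Of the 3 genes whose excess on array A over arrays B and C was larger than that of *Hsp70Ab*, *grnd* and *Dcps* were at the floor of the ratio on array B. The third, *CG8197*, had 0.93 (A), −0.67 (B) and −0.52 (C), beside 0.90, −0.65 and −0.59 for *Hsp70Ab*. The likeness was found after the values were seen and rests on 3 arrays, and whether the probes share sequence was not tested.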
